A study of Mus musculus with 39 samples.

Results

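Most genes described here make, lengthen or desaturate fatty acids: Acaca, Fasn, Scd1, Fads1, Fads2, Elovl3, Elovl5 and Elovl6. With them are Srebf1, which encodes a transcription factor, and Pnpla3, which encodes a lipid droplet protein. All 10 were chosen by symbol and were found among the 54735 genes of both the liver and the spleen table. Messenger RNA was sequenced from C57BL/6 mice at 4 weeks of age, in 39 libraries. The mice were knockout or wild type for SXR/PXR, a nuclear receptor that senses drugs and other foreign compounds and is encoded by Nr1i2. Around birth and up to that age they had been exposed to about 54 µg per kg per day of PCB-153, a persistent polychlorinated biphenyl, or to its solvent DMSO (vehicle), and crossing genotype with exposure asks whether the receptor bears on the response to PCB-153. In each tissue there were 5 libraries each from knockout PCB-153, knockout vehicle and wild-type PCB-153 mice, and 5 liver but 4 spleen libraries from wild-type vehicle mice. The labels name neither the deleted exons nor litters, and do not say whether replicates were separate mice, so the p-values speak only for the spread among these libraries, which may be technical.

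Liver builds fatty acids from acetyl-CoA when carbohydrate is plentiful. Acetyl-CoA carboxylase (Acaca) and fatty acid synthase (Fasn) carry out the synthesis, elongases (Elovl genes) add carbon pairs, desaturases (Scd1, Fads1, Fads2) add double bonds, and the transcription factor SREBP-1 (Srebf1) raises the whole set in response to insulin. In mouse liver this programme also follows feeding and the circadian clock, and the elongase Elovl3 is a male-typical liver gene.

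On GRCm38, 4 of the 10 genes lie on chromosome 19. Fads2 (chr19:10062765-10101746, minus strand) and Fads1 (chr19:10182888-10196877, plus strand) lie close together, and Scd1 (chr19:44394455-44407879, minus strand) and Elovl3 (chr19:46131897-46135694, plus strand) lie further along. Srebf1 (chr11:60199089-60222581, minus strand), Acaca (chr11:84129672-84401651, plus strand) and Fasn (chr11:120805846-120824547, minus strand) are on chromosome 11. Elovl6 is at chr3:129532355-129638495, Elovl5 at chr9:77917364-77984519 and Pnpla3 at chr15:84167837-84187236, all on the plus strand, and counts are of reads over the exons of each gene.

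Libraries held 15.2 to 28.6 M counted reads in liver (median 19.0 M) and 16.1 to 29.5 M in spleen (median 19.6 M). Values below are normalised read counts, that is reads divided by 1 size factor per library. In livers Nr1i2 stood at 449 to 969 in knockout vehicle and 1328 to 1781 in wild-type vehicle libraries, without overlap, and at 612 to 1155 in knockout PCB-153 against 1019 to 1939 in wild-type PCB-153 libraries, which overlapped. The deleted stretch is not named, so counts over the whole gene are no full check of the knockout. In spleens the labels and the gene disagreed. Nr1i2 stood at 42.9 to 62.8 in the 10 libraries labelled knockout and at 0 to 2.27 in the 9 labelled wild type, so spleens are called labelled knockout and directions between genotypes there rest on the label alone. Xist did not exceed 14.4 and Y-linked Eif2s3y was at least 582 in any library, a male pattern throughout. The liver marker Alb was at least 1288320 in every liver library. Among spleens labelled knockout with PCB-153, replicates 1, 4 and 5 carried pancreatic RNA, with the enzyme gene Ctrb1 at 1993, 15911 and 90.6, against at most 10.4 in every other spleen library. Replicates 1 and 4 also had the B-cell gene Cd79a at 3151 and 3167.

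Per kilobase of annotated exon, Scd1, the stearoyl-CoA desaturase that makes monounsaturated fatty acids, was the most abundant of the 10 genes in each of the 4 liver groups. Its level was 10642 ± 5869 normalised reads per kilobase in knockout PCB-153 livers, 27913 ± 1189 in knockout vehicle livers, 10332 ± 1435 in wild-type PCB-153 livers and 15205 ± 5175 in wild-type vehicle livers (SD, n = 5 each). Elovl5, Fads1 and Fads2, which act on polyunsaturated fatty acids, followed at group means of 1116 to 3041 per kilobase, and neighbours among them overlapped in every group except knockout vehicle livers (in wild-type PCB-153 livers Fads1 and Fads2 did). Fasn (667 to 890) and Srebf1 (388 to 543) came next, Elovl6 at 147 to 265 and Acaca at 86.6 to 107. Pnpla3, a lipid droplet protein, was scarce at 12.8 to 49.99 per kilobase. Elovl3 had no fixed place, with group means between 14.5 and 517 per kilobase. In bulk tissue, fewer cells of a type and less RNA per cell cannot be told apart.

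**Figure D1:**
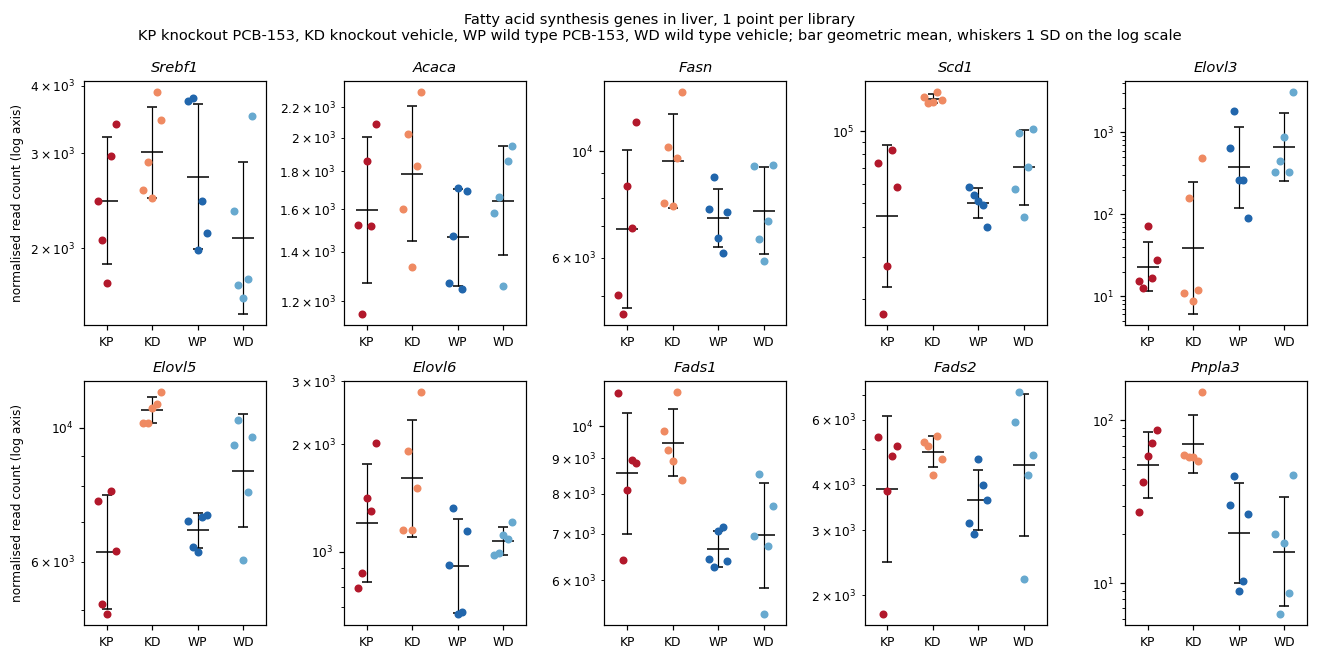
Normalised read counts of the 10 genes in liver (log axes), 1 point per library, with the geometric mean and 1 SD on the log scale, for knockout PCB-153 (KP), knockout vehicle (KD), wild-type PCB-153 (WP) and wild-type vehicle (WD). Scd1 lies at 131059 or above in every knockout vehicle liver, above every library of the other 3 groups, and Elovl3 lies below 100 in all 5 knockout PCB-153 livers.

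Knockout vehicle livers set against wild-type vehicle livers ask what genotype alone goes with. Of the 10 genes, 9 had a higher mean on the log2 scale, with a median log2 fold change of 0.39 against 0.01 over all 16155 genes tested, and 1 passed the test (limma with Benjamini-Hochberg adjustment over all genes, adjusted p under 0.05). Among all genes 0.607% passed, 0.334% as higher. The gene that passed was Pnpla3. It had 61.3, 59.7, 59.9, 56.7 and 149 normalised reads in knockout vehicle livers, against 19.96, 6.46, 17.7, 8.76 and 46.3 in wild-type vehicle livers. Every knockout library lay above every wild-type library, which was so for 2 of the 10 genes and for 1.39% of all genes (1.61% the other way). Pnpla3 rose by 2.11 ± 0.47 on the log2(value + 1) scale (SE, n = 5 each, adjusted p = 0.0443). The call rests on few reads, 411 in all knockout vehicle livers and 86 in all wild-type vehicle livers. Of the exon bases of Pnpla3, 6.78% overlap the predicted gene Gm49513 on the same strand. The call was kept without wild-type vehicle replicate 5 (adjusted p = 0.00914) and lost when any other single library was left out (adjusted p up to 0.121), and with edgeR on whole reads recovered from the normalised values (1.98, adjusted p = 0.054). It was also lost with no filter on low values (adjusted p = 0.0664) and with only the compared groups in the fit (adjusted p = 0.0739). DESeq2 on the recovered reads kept it. The authors' deposited table, which for this comparison holds only genes under an adjusted p of 0.05, gives 1.97 with an adjusted p of 0.0039. The submitters' notes name DESeq2 too, so the deposited value is no separate check.

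Scd1 was the other gene without overlap. It had 138915, 131059, 132369, 145464 and 134946 normalised reads in knockout vehicle livers, against 57270, 98380, 43716, 70927 and 101630 in wild-type vehicle livers. The knockout vehicle libraries lay close together, with a coefficient of variation of 4.26%, and the wild-type vehicle libraries had one of 34.0%. The log2 fold change was 0.95 ± 0.32 (adjusted p = 0.214), which did not pass. Scd1 shares 4.56% of its 50-base words with its neighbours Scd2, Scd3 and Scd4, which are related desaturases, so a few of its reads could belong to them. Their own means in knockout vehicle and wild-type vehicle livers were 939 and 352 for Scd2, 1619 and 769 for Scd3, and 113 and 69.7 for Scd4. The means were higher in knockout livers for all 3 genes, and none passed the test (limma adjusted p of 0.06 to 0.516).

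Of the remaining genes none with a higher mean passed. Fads1, the desaturase that forms arachidonic acid, had a log2 fold change of 0.44 ± 0.13 (adjusted p = 0.155), and Elovl5 one of 0.33 ± 0.14 (adjusted p = 0.323). The regulator Srebf1 had 0.53 ± 0.23 (adjusted p = 0.347) and Elovl6, which turns palmitate into stearate, 0.58 ± 0.25 (adjusted p = 0.346). Fasn (0.34), Acaca (0.12) and Fads2 (0.12) had adjusted p-values of 0.517 to 0.888. For Acaca, 30.4% of its 50-base words occur in other annotated genes, the predicted gene Gm5182 among them, so its count is uncertain.

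Elovl3, which lengthens long-chain fatty acids, was the 1 gene with a lower mean. In knockout vehicle livers it had 10.99, 156, 8.68, 11.8 and 490 normalised reads, against 330, 449, 884, 324 and 3115 in wild-type vehicle livers. Most knockout libraries lay far below the wild-type ones, but replicate 5 of the knockout reached into the wild-type range. The log2 fold change was -4.03 ± 0.96 (adjusted p = 0.0572), which did not pass. It passed without knockout vehicle replicate 5 (-4.93, adjusted p = 0.00566) or without replicate 2 (-4.52, adjusted p = 0.0347), the other knockout library above 100. Leaving out either of these high knockout libraries widens the difference. Without any other single library of the compared groups Elovl3 did not pass (adjusted p up to 0.213).

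After PCB-153 the genotypes were compared again, knockout PCB-153 against wild-type PCB-153 livers. In this comparison 1.45% of all genes passed the test, 0.854% as lower, and of the 10 genes Elovl3 passed. It had 15.2, 12.7, 71.4, 16.8 and 27.3 normalised reads in knockout PCB-153 livers, against 637, 1845, 260, 262 and 90.4 in wild-type PCB-153 livers. All 5 knockout libraries lay below all 5 wild-type ones, which was so for 1 of the 10 genes and for 1.38% of all genes (1.21% the other way). Elovl3 fell by 3.96 ± 0.96 on the log2(value + 1) scale (SE, n = 5 each, adjusted p = 0.0388), and the authors' deposited table gives -4.43 with an adjusted p of 0.00164. Without wild-type PCB-153 replicate 5 or knockout PCB-153 replicate 3 the call was kept (adjusted p = 0.018 and 0.0356), and without any other single library it was lost (adjusted p up to 0.146), as it was with no filter on low values (adjusted p = 0.0552).

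A list of 12 other male-typical liver genes ran alongside Elovl3. Of these, 7 were called lower in knockout vehicle against wild-type vehicle livers (median log2 fold change -1.79) and 11 in knockout PCB-153 against wild-type PCB-153 livers (median -2.36). Their summed level was 7567 to 10583 normalised reads in knockout PCB-153, 8518 to 23026 in knockout vehicle, 20910 to 51189 in wild-type PCB-153 and 29976 to 50321 in wild-type vehicle livers, and their part in the result for Elovl3 was not tested. Across the 20 liver libraries, the genes whose log2 level ran most like that of Elovl3 were Cyp2d9 (Pearson r = 0.95), which belongs to that list, Serpina3k (0.93) and Ces3a (0.93), among 10635 genes with a mean of at least 50. The libraries share genotype and exposure groups, so these values are a description only.

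None of the other 9 genes passed between the genotypes after PCB-153, and for each of them the groups overlapped. Pnpla3 had 27.3, 41.7, 60.5, 72.7 and 87.6 normalised reads in knockout PCB-153 livers, against 30.1, 45.8, 9.01, 10.3 and 26.8 in wild-type PCB-153 livers, a log2 fold change of 1.35 ± 0.47 (adjusted p = 0.238). Fads1 had 0.36 ± 0.13 (adjusted p = 0.266) and Elovl6 0.40 ± 0.25 (adjusted p = 0.636). Scd1 had -0.18 ± 0.32 (adjusted p = 0.905, 95% interval -0.85 to 0.49). The values for Srebf1 (-0.15), Acaca (0.12), Fasn (-0.08), Elovl5 (-0.12) and Fads2 (0.10) had adjusted p-values of 0.84 to 0.941.

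**Figure D2:**
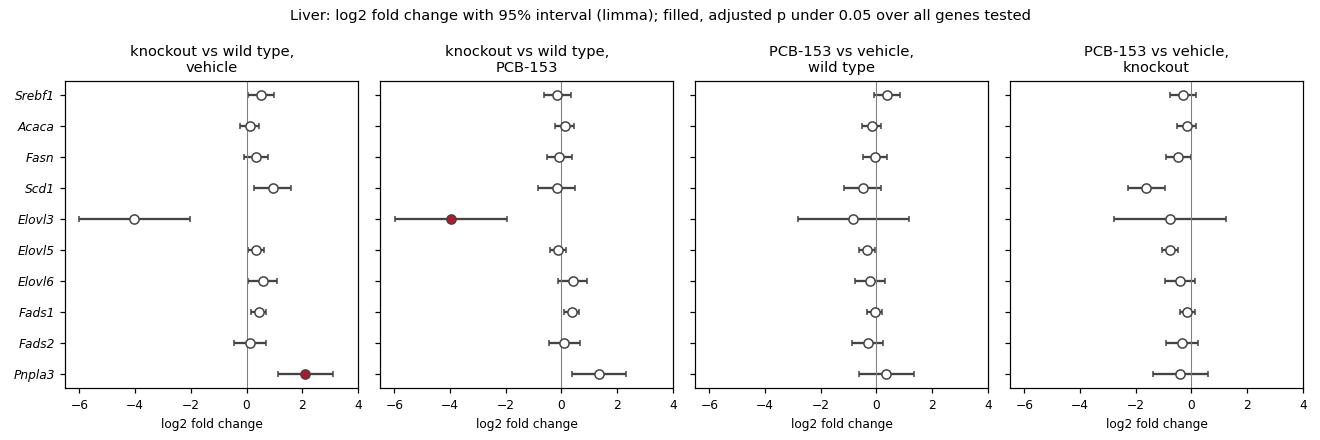
Log2 fold changes (x axis) of the 10 genes in liver with 95% intervals from limma, in 4 panels by comparison, with filled points for an adjusted p under 0.05. Pnpla3 (2.11) and Elovl3 (-3.96) are the filled points, and in knockout livers all 10 points for PCB-153 against vehicle lie below 0, with Scd1 at -1.62 and Elovl5 at -0.78.

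PCB-153 in knockout livers went with lower means of all 10 genes, with a median log2 fold change of -0.41 against -0.0025 over all genes. By limma no gene at all passed in this comparison (0% called), while 1592 genes, 3 of the 10 among them, had an unadjusted p under 0.05. On the recovered reads edgeR called 0 genes and DESeq2 61, with Scd1 and Elovl5 among the DESeq2 calls. Scd1 had 73723, 17344, 27482, 83331 and 58426 normalised reads in knockout PCB-153 livers, against 138915, 131059, 132369, 145464 and 134946 in knockout vehicle livers. Every exposed library lay below every vehicle library, and the exposed libraries were the more spread out, with a coefficient of variation of 55.1%. The log2 fold change was -1.62 ± 0.32 (SE, n = 5 each, adjusted p = 0.0959).

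Elovl5, which lengthens polyunsaturated fatty acids, had 7580, 5114, 4921, 7859 and 6268 normalised reads in knockout PCB-153 livers, against 10175, 10185, 10802, 10935 and 11458 in knockout vehicle livers. Here too the groups did not overlap, which was so for 2 of the 10 genes, both lower, and for 1.25% of all genes as lower (1.17% as higher). Its log2 fold change was -0.78 ± 0.14 (adjusted p = 0.0959). The authors' deposited table gives -1.39 with an adjusted p of 0.0016 for Scd1 and -0.75 with an adjusted p of 0.000776 for Elovl5. DESeq2 on the recovered reads gave these same values, so the deposited ones are no separate check. Both genes passed limma when knockout PCB-153 replicate 4, their highest exposed library, was left out (-1.85 and -0.86, adjusted p = 0.0495 each). Leaving out that library widens the difference. Without any other single library of the compared groups neither passed (adjusted p up to 0.329 for Scd1 and 0.31 for Elovl5).

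The other 8 genes overlapped between these groups. Fasn had a log2 fold change of -0.47 ± 0.21 (adjusted p = 0.489), Elovl6 -0.41, Fads2 -0.33, Srebf1 -0.30, Acaca -0.16 and Fads1 -0.15, with adjusted p-values of 0.573 to 0.706. The scarce genes were Pnpla3 at -0.41 (adjusted p = 0.742) and Elovl3 at -0.76 (adjusted p = 0.761). The higher means in knockout vehicle livers against wild-type vehicle livers and the lower means in knockout PCB-153 livers against knockout vehicle livers both rest on the same 5 knockout vehicle libraries. Those libraries had the highest mean and the smallest coefficient of variation of the 4 groups for Scd1 and Elovl5.

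In wild-type livers PCB-153 against vehicle gave no call for any gene (0% called by limma, 1081 genes at an unadjusted p under 0.05, 0 by edgeR and 0 by DESeq2). Of the 10 genes, 8 had a lower mean. The median log2 fold change of the 10 was -0.20, against -0.0065 over all genes. The groups overlapped for all 10, as they did for all but 0.241% (higher) and 0.266% (lower) of all genes. Elovl5 had 7016, 6357, 6238, 7120 and 7188 normalised reads in wild-type PCB-153 livers, against 9357, 10316, 6050, 7845 and 9661 in wild-type vehicle livers. The exposed libraries were the more even, and 1 vehicle library lay below all of them. The log2 fold change was -0.33 ± 0.14 (adjusted p = 0.717), and those of Scd1 (-0.50), Elovl3 (-0.83), Srebf1 (0.38) and Pnpla3 (0.35) had adjusted p-values of 0.721 to 0.842. The difference between the exposure effects of the genotypes was not called for any gene (0%, with 435 genes at an unadjusted p under 0.05 and none by edgeR or DESeq2). It was -1.12 ± 0.45 for Scd1 (unadjusted p = 0.0219), -0.45 ± 0.20 for Elovl5 (0.0327) and -0.67 ± 0.32 for Srebf1 (0.0498), each with a limma adjusted p of 0.9999.

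Within each liver group the spread of these genes among libraries was also described. The libraries with the lowest Nr1d1, a clock gene whose product REV-ERB alpha represses transcription, were replicate 5 of knockout PCB-153 (493 normalised reads), replicate 5 of knockout vehicle (343), replicate 2 of wild-type PCB-153 (598) and replicate 5 of wild-type vehicle (697). In all 4 groups that library held the group's highest Fasn, Elovl6 and Pnpla3, and in 3 of 4 its highest Srebf1, Acaca and Elovl3. This was so in 1 of 4 groups for Scd1 and Elovl5 and in 0 of 4 for Fads1 and Fads2. For Fasn these were 11525, 13305, 8845 and 9357 normalised reads in the order of groups just given, and for Elovl6 2015, 2795, 1325 and 1210. The lowest values matched less well. Wild-type vehicle replicate 3 and knockout PCB-153 replicate 2 held their groups' lowest Fasn and Acaca without having the highest Nr1d1 (1029 and 664). In knockout vehicle and wild-type PCB-153 livers the lowest Fasn was in the library with the highest Nr1d1 (1221 and 2326). How many of all genes match Nr1d1 in this way was not counted.

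**Figure D3:**
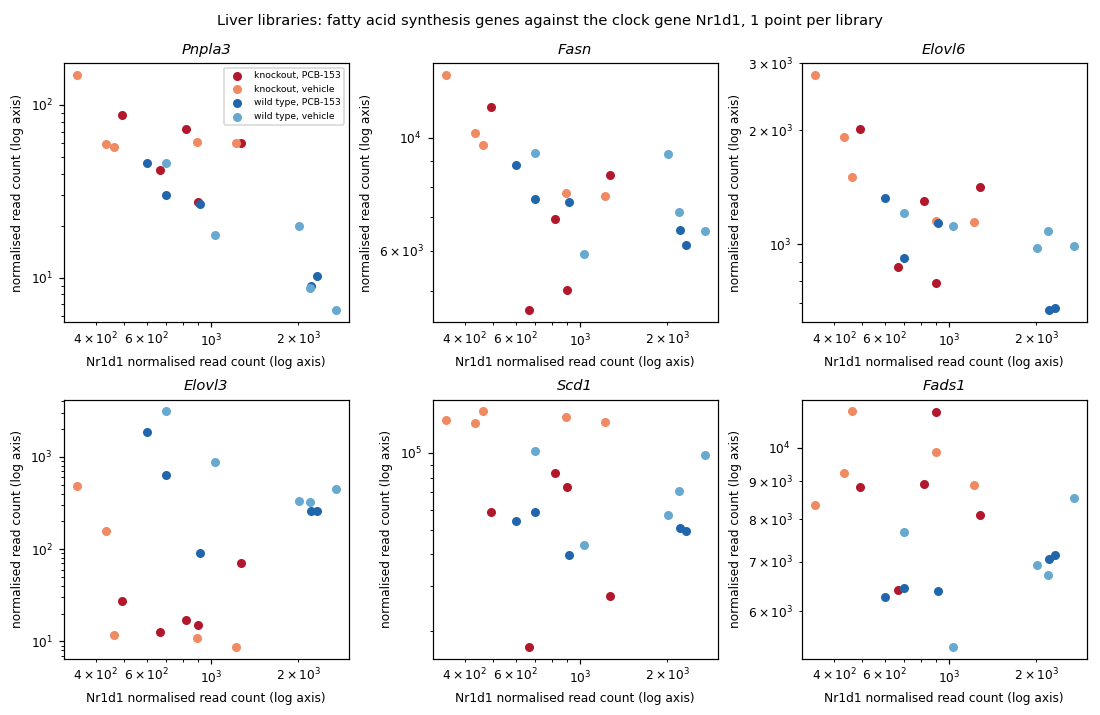
Normalised read counts of 6 genes (y axes) against Nr1d1 (x axes) in the 20 liver libraries, log axes, coloured by group. Pnpla3 is 149 at the lowest Nr1d1 (343), a knockout vehicle library, and 6.46 at the highest (2698), a wild-type vehicle library. These libraries differ in genotype as well as in Nr1d1. For Scd1 and Fads1 the library with the lowest Nr1d1 is the group's highest in 1 and 0 of 4 groups.

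Nr1d1 itself averaged 671 ± 375 normalised reads in knockout vehicle against 1725 ± 835 in wild-type vehicle livers (SD, n = 5 each, log2 fold change -1.36, adjusted p = 0.184). Of 12 clock genes tested none was called there, and their median log2 fold change was -0.20. With log2 Nr1d1 as a covariate, chosen after seeing the data, the difference between knockout and wild-type vehicle livers was 0.97 ± 0.39 for Pnpla3 (adjusted p = 0.336), 0.03 for Srebf1, 0.04 for Fasn and 0.06 for Elovl6. Under the same covariate it was 0.90 for Scd1 and 0.54 for Fads1, and -5.82 ± 0.97 for Elovl3, which then passed the test (adjusted p = 0.00321). For Elovl3 in knockout PCB-153 against wild-type PCB-153 livers the log2 fold change was -4.66 under it (adjusted p = 0.00223). Scd1 and Elovl5 in knockout PCB-153 against knockout vehicle livers had -1.61 and -0.78. The labels give no time of collection, and whether the libraries differed in it was not tested.

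The promoters of the 3 genes whose highest library matched the lowest Nr1d1 in all 4 groups are shown because they shared that library. In none of the 4 groups did all 3 share the lowest library, and how closely they ran together was not tested. RefSeq windows on GRCm38.p6 were matched for 7 of the 10 genes. Each line gives the 250 bases before the start on the gene's strand, with capitals for the motifs CCAAT (bound by NF-Y), GGGCGG (GC box) and AGGTCA (bound by nuclear receptors) found on either strand. The windows are chr15:84167566-84167815 (plus strand) for Pnpla3, chr11:120824548-120824797 (minus strand) for Fasn and chr3:129532136-129532385 (plus strand) for Elovl6.
Pnpla3: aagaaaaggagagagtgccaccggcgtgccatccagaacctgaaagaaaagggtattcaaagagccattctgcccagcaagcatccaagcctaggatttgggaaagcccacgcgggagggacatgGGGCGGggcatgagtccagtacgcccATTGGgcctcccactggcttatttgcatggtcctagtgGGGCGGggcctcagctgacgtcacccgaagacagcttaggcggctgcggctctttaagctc
Fasn: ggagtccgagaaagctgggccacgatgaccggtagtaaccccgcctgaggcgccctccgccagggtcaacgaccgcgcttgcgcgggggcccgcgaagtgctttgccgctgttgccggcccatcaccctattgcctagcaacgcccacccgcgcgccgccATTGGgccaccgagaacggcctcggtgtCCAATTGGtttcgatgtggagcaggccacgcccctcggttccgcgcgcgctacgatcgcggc
Elovl6: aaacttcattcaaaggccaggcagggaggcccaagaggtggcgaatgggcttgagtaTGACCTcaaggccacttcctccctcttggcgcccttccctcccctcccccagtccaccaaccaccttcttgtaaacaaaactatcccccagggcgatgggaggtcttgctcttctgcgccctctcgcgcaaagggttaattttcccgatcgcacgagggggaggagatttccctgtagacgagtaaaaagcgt
No motif was in all 3 windows. Pnpla3 held 1 CCAAT and 2 GC boxes, the first GC box 125 bases before the start, and Fasn held 3 CCAAT matches, of which a pair overlap on opposite strands 62 and 59 bases before it. Elovl6 held 1 AGGTCA match, on the other strand, 193 bases before the start. Of 32851 RefSeq windows of the same length, 33.85% held CCAAT, 32.74% GGGCGG and 14.02% AGGTCA. The SREBP motif TCACNCCAC (1.053% of windows) was in none of the 9 windows of the 7 genes, and the E-box CACGTG (6.021%) was in that of Elovl5. Outside the 10 genes, those most like Fasn in log2 level across the 20 liver libraries were Mical2, Thada and Tnrc6b (Pearson r = 0.87 each). Those most like Pnpla3 were Slc1a4 (0.86), Ndrg1 (0.84) and Insc (0.82). The 10 genes, predicted genes and genes with a mean under 50 were not candidates in this ranking.

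Other genes of the pathway were grouped by role. Of 10 genes that supply acetyl-CoA, malonyl-CoA and NADPH, 1 was called in knockout against wild-type vehicle livers. This was G6pdx, the glucose-6-phosphate dehydrogenase that supplies NADPH, with 184, 170, 174, 142 and 157 normalised reads in knockout vehicle livers, against 71.6, 94.4, 81.1, 82.1 and 115 in wild-type vehicle livers. The groups did not overlap, and G6pdx rose by 0.90 ± 0.17 on the log2 scale (n = 5 each, adjusted p = 0.0129). With log2 Nr1d1 as a covariate it had 0.79 (adjusted p = 0.0903). The list's median log2 fold change was 0.33 there and -0.47 in knockout PCB-153 against knockout vehicle livers, where 8 of 10 genes had a lower mean and none was called.

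No gene of the other 4 lists was called in either of those comparisons. The 11 regulators (SREBP processing, LXR and ChREBP genes) had medians of -0.05 in knockout against wild-type vehicle livers and 0.03 in knockout PCB-153 against knockout vehicle livers. The 7 other elongation genes tested had -0.07 and -0.11, the 7 other desaturation genes 0.28 and -0.23, and the 13 glycerolipid and lipid droplet genes -0.11 and -0.10. Medians of the 10 genes themselves were 0.39 and -0.41 in the same comparisons. Of 9 fasting genes tested, such as Pck1, none was called in any liver comparison.

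**Figure D4:**
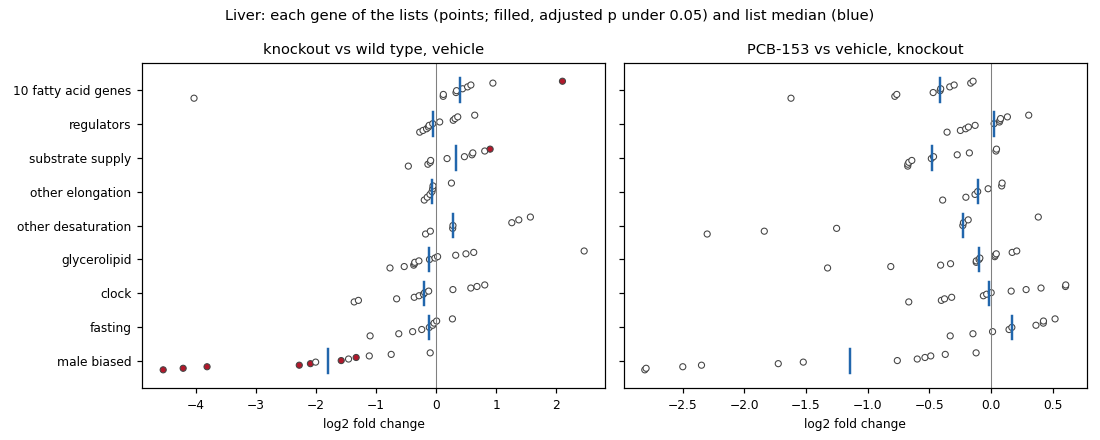
Log2 fold changes of single genes (points, filled for an adjusted p under 0.05) by list, with list medians in blue, for knockout against wild-type vehicle livers (left) and knockout PCB-153 against knockout vehicle livers (right). The 10 fatty acid genes have medians of 0.39 and -0.41, and the male-typical list has 7 filled points, all on the left.

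Fat tissue expresses these genes strongly, so its markers were read in the same libraries. In liver Adipoq did not exceed 2.0, Plin1 1.0, and Lep, Retn and Ucp1 stayed below 1 in every library. The summed level of the 10 fat markers was 6936 to 24309 in knockout PCB-153, 19831 to 29819 in knockout vehicle, 27161 to 35136 in wild-type PCB-153 and 28746 to 47694 in wild-type vehicle livers, nearly all of it Car3, which liver also expresses. Car3 was called lower in knockout PCB-153 against wild-type PCB-153 livers.

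In spleen Scd1 again led the 10 genes, at 882 ± 121 per kilobase in labelled knockout PCB-153, 1166 ± 170 in labelled knockout vehicle, 983 ± 138 in wild-type PCB-153 (SD, n = 5 each) and 943 ± 76.3 in wild-type vehicle spleens (n = 4). Elovl5, Fads1, Srebf1 and Fasn followed at group means of 184 to 282 per kilobase, and neighbours among them overlapped in all 4 groups. The tissues were normalised separately, so no level was tested between them. Elovl3, at most 2.23 normalised reads in any spleen library, and Pnpla3, at 2.01 to 22.2, fell under the minimum mean of 10, so 8 genes were tested.

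**Figure D5:**
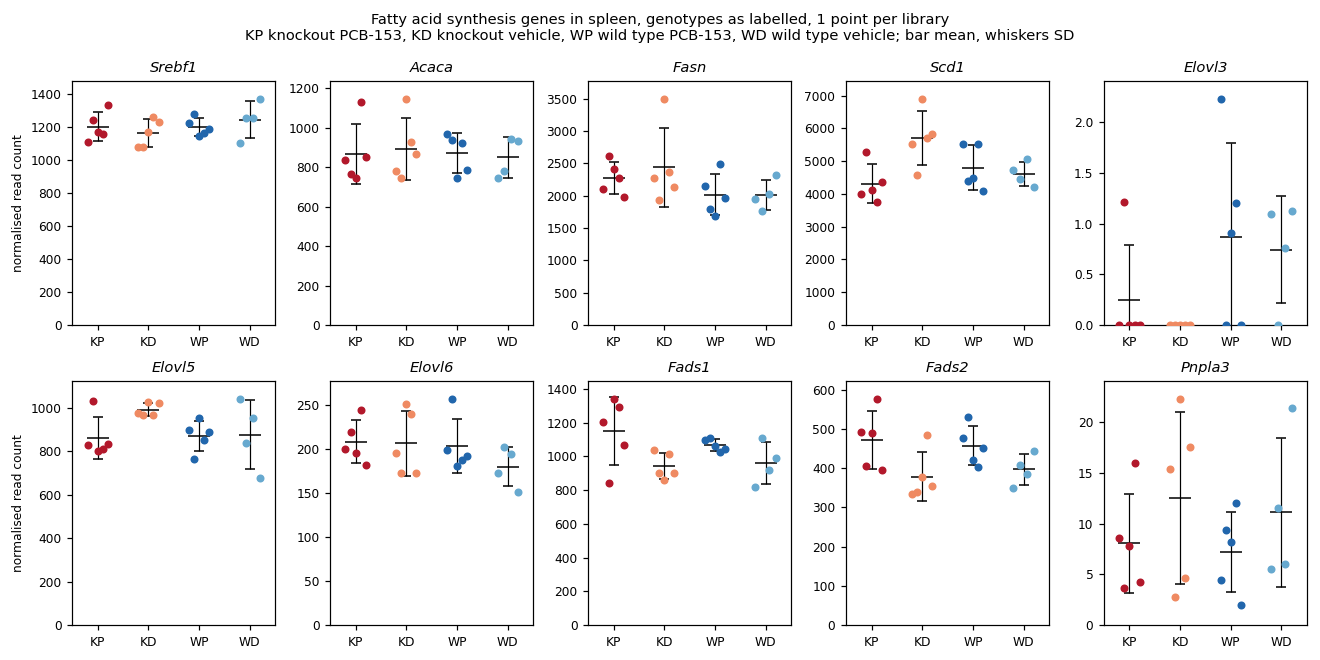
Normalised read counts of the 10 genes in spleen (linear axes from 0), 1 point per library, with the mean and SD, for labelled knockout PCB-153 (KP), labelled knockout vehicle (KD), wild-type PCB-153 (WP) and wild-type vehicle (WD). The groups overlap for every gene, Scd1 included.

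Among spleens, PCB-153 against vehicle in labelled knockout mice gave the 1 call, Scd1, where 5.3% of all 19058 genes tested passed, 2.52% as lower. Scd1 had 3998, 5292, 4128, 3766 and 4380 normalised reads in labelled knockout PCB-153 spleens, against 5535, 4571, 6900, 5702 and 5817 in labelled knockout vehicle spleens. The exposed libraries were mostly the lower, and the groups overlapped through replicate 2 of each. Scd1 fell by 0.40 ± 0.11 on the log2 scale (SE, n = 5 each, adjusted p = 0.0388), and the authors' deposited table gives -0.40 with an adjusted p of 0.00963. The call was lost without labelled knockout vehicle replicate 3, 4 or 5 or labelled knockout PCB-153 replicate 1, 3 or 4 (adjusted p up to 0.11). It was also lost with no filter on low values (adjusted p = 0.0722) and with only the compared groups in the fit (adjusted p = 0.0775). In fits chosen after seeing the data, it had -0.31 (adjusted p = 0.283) without exposed replicates 1 and 4, those with the most pancreatic RNA, and -0.28 (adjusted p = 0.411) without replicates 1, 4 and 5.

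Cell-type markers moved in the same comparison. Of 8 B-cell genes 6 were called lower, with summed levels of 21688 to 36550 in labelled knockout PCB-153 and 36538 to 47570 in labelled knockout vehicle spleens. Of 8 neutrophil genes 6, of 8 erythroid genes 3 and of 9 pancreatic genes tested 2 were called higher. Among all 19058 genes tested, 530 were called higher and 480 lower. Without exposed replicates 1 and 4 together, 25 genes were called, and with single libraries left out 10 to 3702. The marker calls were not counted in those fits. Pancreatic markers summed to 60.3 to 123519 (median 613) in the exposed and 50.6 to 79.5 in the vehicle libraries. Fat markers varied within groups, at sums of 507 to 2862 in the exposed and 823 to 3537 in the vehicle libraries, and with their mean log2 level (Adipoq, Plin1 and Cfd) as a covariate, chosen after seeing the data, Scd1 had -0.39 (adjusted p = 0.0287). All 8 hepatocyte genes tested had lower means, with sums of 48.3 to 252 in the exposed and 56.7 to 12034 in the vehicle libraries. The part of these cell types in the result was not tested.

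The polyunsaturated genes ran in both directions in that comparison without passing. Fads2 had 492, 406, 490, 576 and 395 normalised reads in labelled knockout PCB-153 spleens, against 333, 338, 377, 485 and 356 in labelled knockout vehicle spleens. The exposed libraries were mostly the higher, with overlap through 1 vehicle library, and the log2 fold change was 0.32 ± 0.11 (adjusted p = 0.0953). Fads1 had 0.27 ± 0.10 (adjusted p = 0.117) and Elovl5 -0.21 ± 0.10 (adjusted p = 0.189). Without exposed replicate 2 all 3 passed (Fads2 0.37, Fads1 0.38 and Elovl5 -0.28, adjusted p of 0.00555 to 0.0406), and without exposed replicate 5 Fads2 did (0.38, adjusted p = 0.0401). Of the other pathway lists, the lipogenic regulator Mid1ip1 rose by 0.37 ± 0.09 (adjusted p = 0.0309) and G6pdx rose by 0.22 ± 0.06 (adjusted p = 0.0302), and both calls were lost without exposed replicates 1 and 4 together (adjusted p = 0.228 and 0.214) and without replicates 1, 4 and 5 (adjusted p = 0.376 and 0.195). They were also lost in 7 and 6 of the 10 fits with a single library left out (adjusted p up to 0.0903 for Mid1ip1 and 0.0991 for G6pdx).

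No spleen comparison had groups without overlap for any of the 10 genes. Over all genes tested such groups were found for 1.82% as higher and 2.81% as lower in labelled knockout PCB-153 against labelled knockout vehicle spleens, and for 1.74% and 1.84% in labelled knockout vehicle against wild-type vehicle spleens. The shares were 1.25% and 0.798% in labelled knockout PCB-153 against wild-type PCB-153 spleens, and 0.462% and 0.923% in wild-type PCB-153 against wild-type vehicle spleens.

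In the other spleen comparisons 0 of the 8 genes tested were called by limma, edgeR or DESeq2. Labelled knockout against wild-type vehicle spleens (0.0315% of all genes called) had 1 of the 8 genes at an unadjusted p under 0.05, Scd1, with 0.30 ± 0.12 (n = 5 and 4, adjusted p = 0.409), and Fasn had 0.25 ± 0.14 (adjusted p = 0.524). Labelled knockout PCB-153 against wild-type PCB-153 spleens (0.157% called) and wild-type PCB-153 against wild-type vehicle spleens (0% called by limma and edgeR, 3 genes by DESeq2, 727 at an unadjusted p under 0.05) had none at that level. The difference between the exposure effects of the genotypes, called for 0% of genes by limma and edgeR (1877 at an unadjusted p under 0.05) and for 31 genes by DESeq2, was -0.45 ± 0.16 for Scd1 (unadjusted p = 0.00966, adjusted p = 0.438).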

How the data were processed

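The deposited signal values are normalised read counts per gene, which the authors made by dividing reads by 1 size factor per library, with liver and spleen done separately. FastQC, STAR 2.6.0, featureCounts and DESeq2 (version given as 3.8) on mm10 are named per the submitters' processing notes, with no options stated. The labels name 2 kit versions, 1 of them stranded, and whether featureCounts used strand is not stated. The authors' deposited comparison tables hold log2 fold changes and p-values, and those for liver knockout vehicle against wild-type vehicle (266 genes) and spleen labelled knockout PCB-153 against wild-type PCB-153 hold no gene above an adjusted p of 0.05.

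Samples were grouped by genotype and exposure from the labels. Values were taken as log2(value + 1), which understates the fold changes of scarce genes, and genes whose tissue mean reached 10 were tested with limma 3.58.1 (R 4.3.3), 1 fit per tissue over 4 groups, two-sided, with Benjamini-Hochberg adjustment over all genes. The code was tested on simulated data. Dividing the values by that of 1 read gave whole reads for 100% of values within 0.05 reads, and edgeR 4.0.16 and DESeq2 1.42.0 were run on those reads as alternatives. Other alternatives changed the pseudocount, filter, normalisation, groups fitted, replicate block and libraries. The 10 genes were named in every comparison, other pathway genes where called. Likeness to Fasn, Pnpla3 and Elovl3 is the highest Pearson r of log2 values among genes with a mean of at least 50. Predicted genes (Gm and Rik names) and the 10 genes themselves were left out of that ranking. The genes and lists were chosen with earlier results of these data known. Positions and exon lengths are from GENCODE on GRCm38, promoters from RefSeq on GRCm38.p6.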

Additional observations from a re-analysis of the deposited data

Results flagged for a closer look

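Single libraries lay far from the others of their group in 8 of 74 gene and group combinations examined, by the gap to the nearest library over the group's range, and chance flags about 1 in 20. In liver, Elovl3 stood at 71.4 normalised reads in knockout PCB-153 replicate 3, against 12.7 to 27.3 in the others of that group. Elovl3 stood at 3115 in wild-type vehicle replicate 5, with the others at 324 to 884. Pnpla3 stood at 149 in knockout vehicle replicate 5, with the others at 56.7 to 61.3, and both of these libraries had the lowest Nr1d1 of their group.

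In spleen, Acaca stood at 1130 in labelled knockout PCB-153 replicate 4, the library with the highest Ctrb1, with the others at 745 to 852. Elovl5 stood at 1034 in labelled knockout PCB-153 replicate 2, with the others at 802 to 832. Fasn stood at 3494 in labelled knockout vehicle replicate 3 (others 1925 to 2367) and Fads2 at 485 in labelled knockout vehicle replicate 4 (others 333 to 377). Elovl6 stood at 257 in wild-type PCB-153 replicate 2 (others 181 to 200).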

How the results depend on the processing

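Of the counts of the 10 genes called, that for knockout against wild-type vehicle livers (1, Pnpla3) was 0 with no filter, edgeR or only the compared groups. It was also 0 with a minimum mean of 50, which left Pnpla3 untested, so that setting is no check of the call. With single libraries left out it was 0 to 1. Without knockout vehicle replicate 2 or 5, and with the Nr1d1 covariate, the 1 gene was Elovl3, as lower, and Pnpla3 was lost. For knockout PCB-153 against wild-type PCB-153 livers (1) it was 0 with no filter and 0 to 1 with single libraries left out. For knockout PCB-153 against knockout vehicle livers (0) it was 2 with DESeq2 and 0 to 2 with single libraries left out. For labelled knockout PCB-153 against labelled knockout vehicle spleens (1) it was 0 with no filter, with the replicate block (Scd1 adjusted p = 0.0582), with only the compared groups and without exposed replicates 1 and 4 or 1, 4 and 5, and 0 to 4 with single libraries left out. The other 6 counts were 0 under every alternative run. Replicate numbers are shared across groups in the labels only. Deviations of same-numbered libraries had a median r of 0.03 in liver and 0.06 in spleen, over 0.1 in 10 of 30 and 9 of 27 pairs. For differently numbered libraries the medians were -0.0095 and -0.0056, with 31 of 120 and 19 of 108 pairs over 0.1. The block changed no other call. Signs turned, with no call either way, for Acaca in knockout against wild-type vehicle livers with the Nr1d1 covariate (-0.00033) and Fads2 there (-0.14 to 0.28 with single libraries left out). In knockout PCB-153 against wild-type PCB-153 livers they turned for Fads2 (-0.013 to 0.39), Fasn (-0.26 to 0.070, edgeR 0.0026) and Scd1 (-0.41 to 0.16, edgeR 0.0518, DESeq2 0.0427). They also turned for Elovl3 in knockout PCB-153 against knockout vehicle livers (-1.28 to 0.13) and for Pnpla3 in wild-type livers with the Nr1d1 covariate (-0.0013). The cause was not tested. Depth limits Pnpla3 and Elovl3, whose low libraries hold few reads.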
